A study of Mus musculus with 8 samples.

Results

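Tregs, the regulatory subset of CD4 T cells, hold other immune cells in check. Their lineage is set by the transcription factor Foxp3, they depend on IL-2 taken up through a high-affinity receptor, and they suppress through surface receptors, cytokines such as IL-10 and TGF-beta, and the breakdown of extracellular ATP to adenosine. In mice that carry a tumor, Tregs in lymphoid organs can take on an activated, tissue-homing state. The data described here are the control Tregs of a study of SRC-3, the nuclear receptor coactivator encoded by Ncoa3: control libraries from tumor-bearing mice against control libraries from mice without a tumor. They are 4 of the 8 libraries of the series, 2 per tumor state, and were chosen by their labels alone.

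All libraries were made from Tregs of the spleen of C57BL/6 mice with a full-length cDNA kit for small RNA amounts (SMART-Seq v4), and the protocol states that cells were sorted for GFP. The labels of the 2 no-tumor controls differ. Replicate 1 carries WT in its name and has no GFP in its source label. Replicate 2 is named as Foxp3-Cre and GFP-positive, as are both tumor controls, whose names carry P1 and P2. The other 4 libraries are GFP-positive SRC-3KO Tregs, 2 without and 2 with a tumor, and both no-tumor SRC-3KO names carry the word Tam1. The tumor type, its site, the ages and the number of mice behind a library are not stated in the labels, nor is it stated that replicates are separate animals. In a Foxp3-Cre mouse, Cre is driven from the Foxp3 gene, so the labelled cells are those with an active Foxp3 locus. Judged by the names alone, a tumor control may differ from replicate 1 in this allele as well as in tumor state. Replicate 1 is called the wild-type library below after its name.

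Tumor state coincides with how the values were made. The no-tumor libraries were deposited as read counts and the tumor libraries as FPKM (fragments scaled to transcript length and library size) from another program. State, batch, unit and counting program cannot be told apart, so no test between the states was run and every difference below is a description of 4 libraries. Values were put on a shared scale, called the level: counts per gene length, or FPKM, scaled to 1000000 over the 21817 protein-coding genes with a known length. Of these, 8348 had a level of at least 5 in both control libraries of a state and were compared. A gene is called separated where both tumor libraries lay at least 2-fold above, or below, both no-tumor libraries, on level + 1. Differences are tumor minus no tumor on log2(level + 1), which understates changes of low genes.

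The 2 no-tumor controls differed from each other as much as from the tumor controls. Across the 8348 genes, Spearman's rho between them was 0.602, and 5675 genes (68%) were at least 2-fold apart. The 2 tumor controls had a rho of 0.928, with 693 genes (8.3%) 2-fold apart. Between the states, rho was 0.513 to 0.696, with 4825 to 5260 genes 2-fold apart in the 4 pairs. The library that stood apart was the wild-type one, replicate 1. Its rho with each of the other 7 libraries was between 0.513 and 0.602. The Foxp3-Cre library without a tumor had rho values of 0.934 and 0.944 with the SRC-3KO no-tumor libraries of the same table. These coefficients are over genes, which are not replicates, and libraries of a table share their processing. Totals were 25251597 and 24159217 counts without a tumor. For the tumor libraries the depth is unknown. Of the protein-coding genes, 15119 and 10424 were detected in the no-tumor controls and 12607 and 13513 in the tumor controls.

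**Figure D1:**
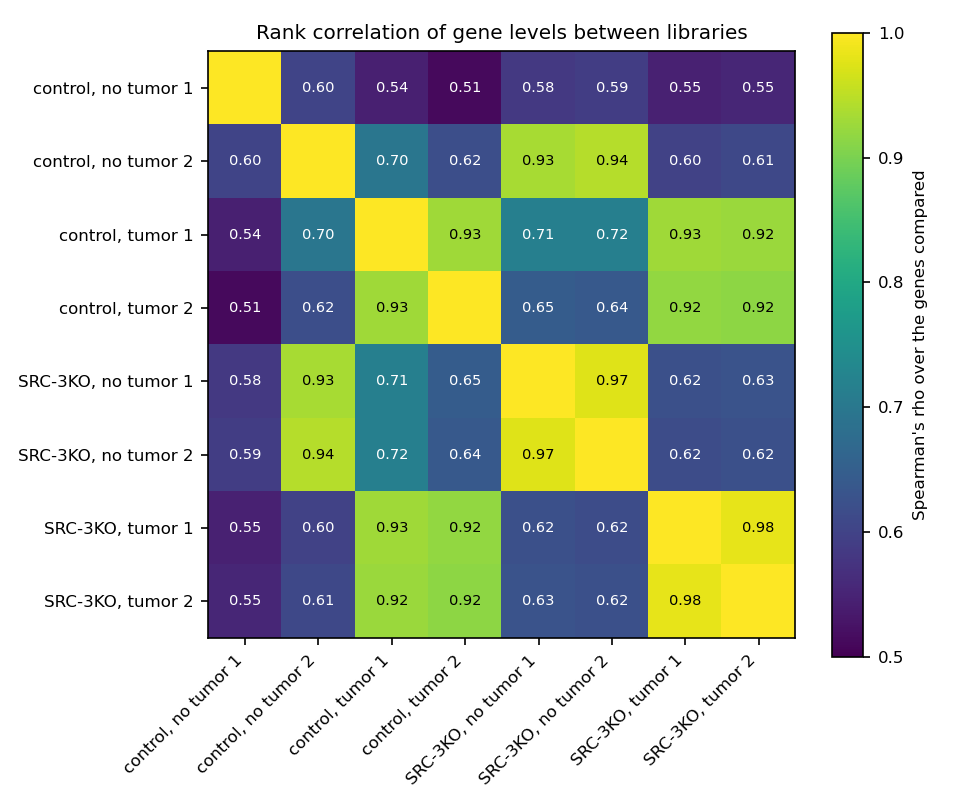
Spearman's rho between each pair of the 8 libraries (rows and columns), over the 8348 genes compared; the colour scale and the printed numbers give rho. The wild-type no-tumor control (control, no tumor 1) has no pair above 0.602, while the 2 tumor controls reach 0.928 with each other.

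A second library stood apart by its myeloid content. Tumor control 2 held a summed level of 12500 over 14 neutrophil genes and of 4430 over 14 monocyte and macrophage genes, against 16.4 and 143 in tumor control 1. S100a8 and S100a9, which encode the calprotectin of neutrophils, stood at 5350 and 4540 in tumor control 2, at 3.80 and 4.27 in tumor control 1, at 221 and 597 in the Foxp3-Cre no-tumor library, and at 0 in the wild-type library. Lyz2, the lysozyme of myeloid cells, stood at 3200 in tumor control 2 and at 1.12 in tumor control 1. In tumor control 1, 9 of the 14 monocyte and macrophage markers were at 0, among them Cd14, Csf1r and the C1q subunits C1qa, C1qb and C1qc. The Foxp3-Cre no-tumor library held a neutrophil sum of 1240. List values without single libraries are therefore given below, and the plot of list medians shows them for each list.

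In these libraries 1565 genes (18.7% of 8348) were separated as higher with a tumor and 295 (3.53%) as lower. The balance of the directions depended on the scaling, since the median difference over all genes was 0.78. After quantile normalization 792 genes were higher and 736 lower. By percentile rank within each library, with a gap of at least 10 points, 471 (5.64%) were higher and 421 (5.04%) lower. Lists are accordingly read relative to the median of all genes. List counts from all 4 libraries are read against 18.7% higher and 3.53% lower of all genes. Leaving out a library raised both counts, and list counts without it are read against its own share of all genes. Without the wild-type library, 3537 of 8640 genes (40.9%) were higher and 953 (11%) lower. Without the Foxp3-Cre no-tumor library, 3193 of 9114 (35.0%) were higher and 1877 (20.6%) lower. Without tumor control 1 the counts were 2589 (28.1%) and 481 (5.23%) of 9200, and without tumor control 2 they were 1853 (21.6%) and 411 (4.79%) of 8579. A gene below a level of 5 in one state was compared only through the other, where it is high, so such members tended to be separated by the way genes were selected. Their number is given with the lists that hold several. The SRC-3KO libraries of the same tables had 3903 higher (46.8%) and 868 lower (10.4%) of the same 8348 genes. Of the control genes, 1336 higher (85.4% of the control list, 34.2% of the SRC-3KO list) and 156 lower (52.9% and 18.0%) were also separated that way there.

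Many of the widest gaps toward the tumor lay in genes that share exons with another gene. Among all genes compared, 24.2% had more than 5% of their exon bases inside exons of another gene. Among those separated as higher it was 36.5%, and among those lower 19.7%. Among the 1565 were 132 genes at 0 counts in all 4 no-tumor libraries of the series, which the filter on levels and the pseudocount place there by construction. The 12 widest gaps included Atp5o (ENSMUSG00000116933, 1 of 2 entries with this symbol), Rbm42, Trex1, Snapc1l, Commd1b and Pagr1b, which were at 0 counts in both no-tumor controls and at levels between 131 and 586 with a tumor. Their exon overlap was 75.4% to 100%. Rnaset2a and Rnaset2b, near-identical copies of a ribonuclease gene, stood at 0.0382 to 1.92 without and 421 to 507 with a tumor. Such values are uncertain, since counting programs treat reads shared between genes differently. Their part in the result was not tested. Among the 6331 genes with at most 5% overlap, 994 (15.7%) were higher and 237 (3.74%) lower. Exon overlap is therefore given below where a named gene exceeds that share.

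Among genes clear of such overlap, the widest gaps were again partly in members of gene copies, such as Tmem254a, Tmem254b, Tmem254c, Srp54b and Gstp2, which may share reads. The others were Cox17, a copper chaperone for cytochrome c oxidase, Tmcc1, Wdr89, Ahcyl2, the class I genes H2-Q1 and the class II gene H2-Aa, and Nt5e. Cox17 stood at 1.15 and 7.40 without a tumor and at 790 and 636 with one. Gapdh, a glycolytic enzyme with many processed copies in the genome, stood at only 39.6 and 16.1 without a tumor (1279 and 590 counts) and at 180 and 145 with one.

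Foxp3 itself was not separated. Foxp3 (chrX:7573644-7595245 of mm10, plus strand, exon overlap 31.5%) stood at 162 and 13.3 without a tumor, from 5809 and 538 counts, and at 50.9 and 42.7 with one. The 2 tumor libraries lay between the 2 no-tumor libraries, and the difference was -0.02. Against the Foxp3-Cre library alone both tumor controls were higher, and against the wild-type library alone both were lower. Cd4, the co-receptor of these cells (chr6:124864692-124888221, minus strand), was separated as higher, at 73.2 and 45.1 against 291 and 231. Cd3e, a chain of the T cell receptor complex, stood at 1260 and 421 against 1070 and 914, so the states overlapped. The defining markers of the labelled cell type, Foxp3, Cd4, Cd3e and Il2ra (the IL-2 receptor alpha chain), were thus detected in all 4 libraries, with Il2ra at 591 and 657 against 803 and 842.

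Of 20 Treg identity genes, 7 were separated as higher and 0 as lower, against 18.7% and 3.53% of all genes. The median difference of the list was 1.27, or 0.49 above that of all genes. It stayed above it without each library in turn, at 0.38 to 1.62. Of the 7, 3 passed the filter only through the tumor libraries. With the wild-type library left out, 12 of 20 were higher, against 40.9% of all genes. Without the Foxp3-Cre library it was 11 of 20 against 35.0%, with 1 lower, and without tumor control 2 it was 8 of 20 against 21.6%. Nt5e encodes CD73, the ectoenzyme that makes adenosine (chr9:88327197-88372092, plus strand). It stood at 1.35 and 3.16 without a tumor and at 92.5 and 82.8 with one, the widest gap of the list. Entpd1 encodes CD39, the enzyme that acts just before CD73, and stood at 1.19 and 3.78 against 15.5 and 40.7. Lrrc32 encodes GARP, which holds latent TGF-beta at the Treg surface, and stood at 31.9 and 50 against 320 and 298. Itgae, the CD103 integrin chain that binds E-cadherin, stood at 4.05 and 4.78 against 37.5 and 42.8. Nrp1, a surface receptor of thymus-derived Tregs, stood at 10.2 and 6.14 against 68.1 and 46.4. These 5 were named for having the widest gaps among the 7 separated members, so their separation restates that choice.

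The other separated members were the costimulatory receptor Tnfrsf9 (4-1BB), at 118 and 510 against 1760 and 1830, and Gpr83, at 42.6 and 53.6 against 192 and 136. The most abundant members overlapped between the states. Tnfrsf4 (OX40) stood at 2460 and 6680 against 5330 and 3620. Tnfrsf18 (GITR, exon overlap 27.2%) stood at 379 and 3430 against 3420 and 2260. Capg stood at 1260 and 640 against 1590 and 1420. In the SRC-3KO libraries 13 of the 20 were separated as higher, against 46.8% of all genes there, among them Nt5e, Entpd1, Lrrc32, Itgae and Nrp1.

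**Figure D2:**
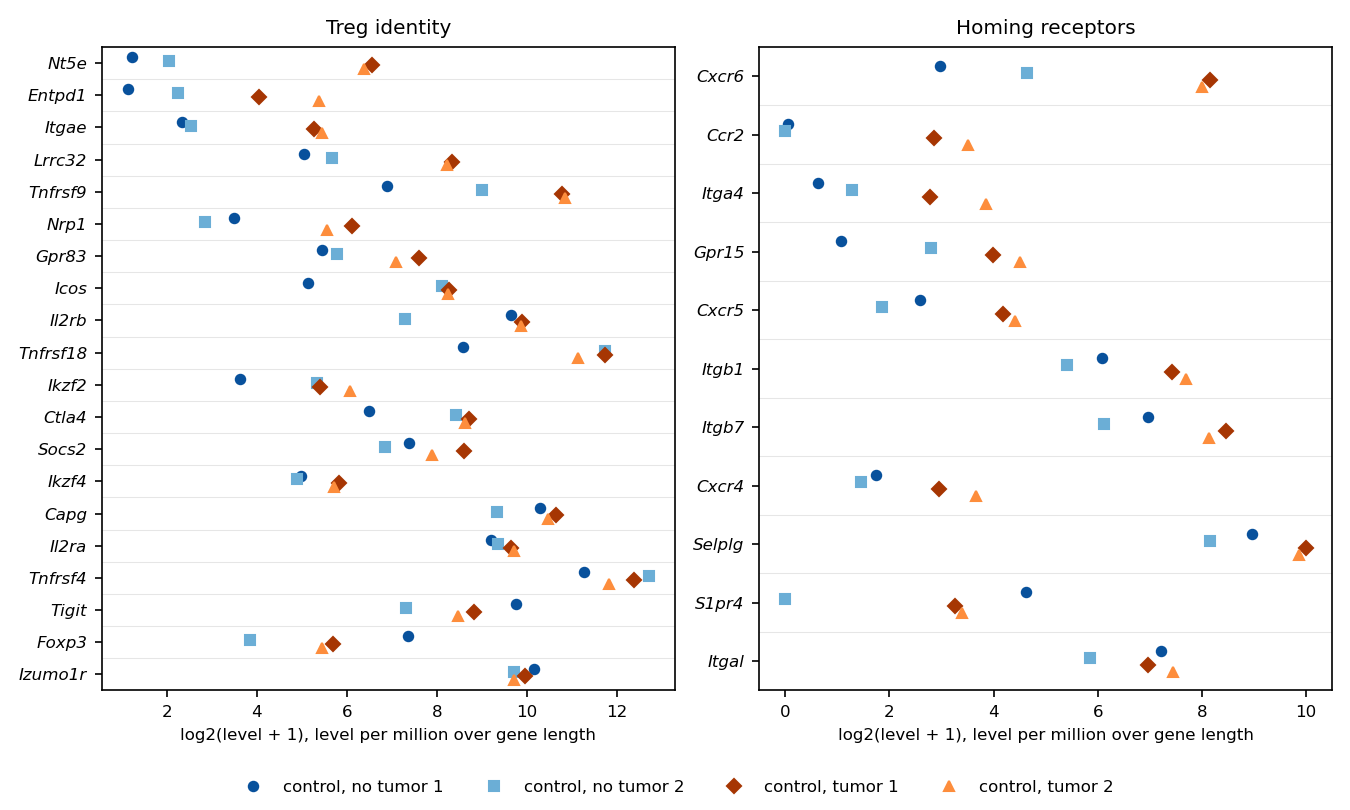
Levels, as log2(level + 1) on the x axis, of the compared Treg identity genes (left) and homing receptor genes (right) in the 4 control libraries; each point is a library, and genes are ordered by their difference. At the top, Nt5e and Cxcr6 have both tumor points (orange) right of both no-tumor points (blue), while the 4 points of Foxp3 and Tnfrsf4 are mixed.

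Effector Treg genes were higher in part, while their median did not exceed that of all genes. Of 24 compared, 7 were higher and 0 lower, against 18.7% and 3.53% of all genes. The median difference of the list was 0.65, or -0.13 relative to all genes. Of the 7, 6 passed the filter only through the tumor libraries. When the wild-type library was omitted, 17 of 24 were higher and 1 lower, against 40.9% of all genes higher, and the median lay 0.89 above all genes. With the Foxp3-Cre library left out, 8 were higher and 4 lower, against 35.0% and 20.6% of all genes. Without tumor control 2 it was 8 and 1, against 21.6% and 4.79%. The 5 widest gaps were in S100a4, Fgl2, Rora, Klrg1 and Havcr2. Fgl2, a soluble suppressive protein, stood at 1.08 and 0 without a tumor, and at 19.3 and 75.4 with one. Rora, a transcription factor of tissue Tregs, stood at 2.43 and 0.483 against 28.0 and 28.4. Klrg1, a marker of terminally differentiated Tregs, stood at 7.78 and 0 against 30.0 and 23.6. Havcr2 (TIM-3, an inhibitory receptor) stood at 2.68 and 7.58 against 26.8 and 27.0. S100a4 stood at 0 and 1.16 against 76.7 and 85.5, with an exon overlap of 51.7%. Il10, the suppressive cytokine, and Prdm1, which encodes Blimp-1, completed the 7. Il10 stood at 20.9 and 19.5 against 60.3 and 65.4, and Prdm1 at 10.9 and 4.39 against 26.9 and 30.4. The most abundant members, Ccr8, Lgals1 and Batf, differed by less than 2-fold: Ccr8, a chemokine receptor of activated Tregs, stood at 1290 and 1170 against 1590 and 1640.

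Homing receptors were mostly higher with a tumor on the level scale, and fewer of them by other scalings. Of 14 on the list 11 were compared, of which 8 were higher and 0 lower, against 18.7% and 3.53% of all genes. The median difference was 1.82, or 1.04 above all genes, and 1.05 to 1.32 above it without each library in turn. However, 5 of the 8 (Ccr2, Itga4, Cxcr4, Cxcr5 and Gpr15) passed the filter only through the tumor libraries. At a filter of 20, 3 of 5 were higher, against 20.1% of all genes. With a pseudocount of 5 it was 5 of 11, against 14.6%. With median-of-ratios scaling 4 of 11 were higher, against 11.3% of all genes, and after quantile normalization 6 of 11, against 9.49%. By percentile rank it was 2 of 11, against 5.64%. Cxcr6, the receptor for CXCL16 (chr9:123806475-123811760, plus strand), stood at 6.88 and 24.1 without a tumor and at 285 and 254 with one. Itgb1, the beta-1 integrin chain, stood at 66.4 and 41.4 against 171 and 207. Itga4, its alpha-4 partner, stood at 0.549 and 1.42 against 5.90 and 13.5, with an exon overlap of 8.04%. Cxcr5, which guides cells to B cell follicles, stood at 5.03 and 2.61 against 17.2 and 20.3. Ccr2, a receptor for monocyte chemoattractants that myeloid cells also express, stood at 0.0378 and 0 against 6.25 and 10.4. Itgb7, Gpr15 and Cxcr4 were the other 3. Selplg, the selectin ligand, and Itgal, of LFA-1, were abundant and not separated.

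TGF-beta genes followed the same direction, with 5 of 15 higher and 0 lower, against 18.7% and 3.53% of all genes. The list median lay 0.80 above all genes. Tgfbr2 and Tgfbr1, the receptor chains, stood at 16.1 and 5.41 against 42.3 and 45, and at 6.12 and 14.9 against 33.3 and 32.6. Itgb8, whose integrin releases active TGF-beta from its latent form, stood at 4.13 and 2.87 against 17.4 and 25.6. Skil and Tgif1, corepressors of the pathway, stood at 8.12 and 12.7 against 30.5 and 40.1, and at 28.2 and 13.0 against 101 and 127. Tgfb1, the ligand, stood at 256 and 21.3 against 129 and 173 and overlapped. Of the 5, 1 passed the filter only through the tumor libraries. Once the wild-type library was dropped, 13 of 15 were higher, against 40.9% of all genes. When the Foxp3-Cre library was omitted, 5 of 16 were higher and 2 lower, against 35.0% and 20.6%, and without tumor control 2 it was 5 of 15 against 21.6%. The median lay 0.34 to 1.65 above all genes without each library in turn.

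Of 17 genes of T cell receptor signalling, 2 (11.8%) were higher and 0 lower, against 18.7% and 3.53% of all genes. The list median lay 0.29 above all genes. The 2 were Cd4 and Cd247, the zeta chain (68.5 and 53.6 against 503 and 428, exon overlap 60.3%). Cd2 stood at 461 and 4680 against 4120 and 2580, and Lat at 2360 and 431 against 633 and 416. In both, the wild-type library was the one away from the other 3. Without it 7 of 17 were higher, against 40.9% of all genes, and without the Foxp3-Cre library 8 were higher and 2 lower, against 35.0% and 20.6%. Without tumor control 2 it was 4 of 17 against 21.6%.

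Mitosis was, among the biology lists, the one with the lowest median relative to all genes. Of 18 genes compared, 8 were separated as lower with a tumor and 0 as higher, against 3.53% of all genes separated as lower. The median difference was -1.91, or -2.69 relative to all genes. Without each library in turn it stayed between -2.7 and -1.5 relative to all genes. With quantile normalization 11 of 18 were lower, against 8.82% of all genes, and by percentile rank 10, against 5.04%. Of the 8, 4 passed the filter only through the no-tumor libraries. Without the wild-type library 9 of 19 were lower and 2 higher, against 11% and 40.9% of all genes. Without the Foxp3-Cre library 15 of 20 were lower, against 20.6%, and without tumor control 2 it was 9 of 19 against 4.79%. The promoters of these genes are known to carry a pair of elements, the CCAAT box bound by NF-Y and the cell cycle homology region read by the DREAM and MuvB complexes. The promoters of 3 separated members hold letters that match both. Printed are the 250 bases before the RefSeq start on GRCm38.p6, 5′ to 3′ on the gene's strand. CCAAT or ATTGG and TTTGAA are in capitals (the reverse of the latter, TTCAAA, was searched as well). In Ccnb2 the printed TTTGAA lies upstream of the CCAAT matches, and 1 further TTTGAA match, after the start, is not shown. Which match, if any, is the cell cycle homology region was not tested.
Ccnb2, chr9:70421555-70421804, minus strand: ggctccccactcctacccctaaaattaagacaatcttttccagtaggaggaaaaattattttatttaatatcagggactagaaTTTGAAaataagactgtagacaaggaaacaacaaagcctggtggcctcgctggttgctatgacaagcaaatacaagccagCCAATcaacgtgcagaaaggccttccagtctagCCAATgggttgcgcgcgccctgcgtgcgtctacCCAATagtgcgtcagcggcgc
Cdk1, chr10:69352913-69353162, minus strand: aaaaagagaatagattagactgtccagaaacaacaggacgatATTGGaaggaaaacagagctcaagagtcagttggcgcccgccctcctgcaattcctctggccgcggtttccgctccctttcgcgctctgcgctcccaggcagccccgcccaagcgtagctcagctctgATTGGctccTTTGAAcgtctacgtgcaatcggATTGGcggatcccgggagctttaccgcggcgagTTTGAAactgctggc
Mki67, chr7:135716380-135716629, minus strand: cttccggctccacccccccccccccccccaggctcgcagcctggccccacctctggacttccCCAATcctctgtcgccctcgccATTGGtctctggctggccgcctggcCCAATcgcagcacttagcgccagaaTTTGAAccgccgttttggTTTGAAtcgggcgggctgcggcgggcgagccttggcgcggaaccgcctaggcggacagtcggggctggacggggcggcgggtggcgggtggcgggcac

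Promoter windows of 300 bases (250 before to 50 after a start) were listed for 17 of the 21 genes of the mitosis list. TTTGAA was in 12 of these 17 windows (70.6%), against 17.9% of all 32851 windows. CCAAT was in 15 (88.2%), against 37.4% of all. Both were in 12, against 6.95% of all windows, and in 1 of the 17 the matches of the 2 motifs overlapped. Of the 8 separated members 7 had a window, and 4 of them held TTTGAA and 6 CCAAT. The windows of DNA replication genes held TTTGAA in 2 of 16 and CCAAT in 10 of 16. A match says only that the letters are there.

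Mki67, the proliferation antigen whose promoter is printed above, stood at 99.6 and 10.9 without a tumor, from 7841 and 971 counts, and at 0.365 and 0.324 with one. Ccnb2, the mitotic cyclin B2, stood at 204 and 69 against 6.61 and 12.1. Cdk1, the kinase that cyclin B activates, stood at 44.1 and 72.4 against 18.6 and 9.52. Cenpe, a kinetochore motor, stood at 13.3 and 14.5 against 0.499 and 0.634. Ube2c, the ubiquitin-conjugating enzyme of the anaphase-promoting complex, stood at 541 and 67.9 against 18.6 and 20.9, with an exon overlap of 22.8%. Tpx2, a spindle factor, stood at 21.7 and 24.6 against 4.93 and 4.90. Birc5 and Ccnb1 were the other 2. In Cdk1, Cenpe, Tpx2 and Ccnb1 the wild-type library was not above the Foxp3-Cre one, so in these 4 genes it was not the higher of the no-tumor pair. In Cdc20 (1360 and 37.0 against 34.9 and 24.2), Aurkb (311 and 30.7 against 26.1 and 21.3) and Plk1 (341 and 3.08 against 9.62 and 11.7) the wild-type library alone stood apart. In the SRC-3KO libraries the same 8 genes were separated as lower, where 10.4% of all genes were.

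DNA replication genes were divided. Of 20, 2 were higher and 1 lower, against 18.7% and 3.53% of all genes, and the median stood at -0.83 relative to all genes. With the wild-type library left out, 8 were higher and 3 lower, against 40.9% and 11% of all genes, and the median was -0.19 relative to them. With the Foxp3-Cre library left out, 3 were higher and 5 lower, against 35.0% and 20.6%, with a median of -0.39, and without tumor control 1 it was 2 and 3, with -1.04. Dut, the enzyme that clears dUTP, was lower, at 619 and 494 against 187 and 126. Mcm6, a subunit of the replicative helicase, was higher, at 98.5 and 187 against 567 and 524. Rrm1, the large subunit of ribonucleotide reductase, was higher, at 7.60 and 16.0 against 140 and 126, while Rrm2, its small subunit, stood at 2710 and 145 against 136 and 112. Histone genes were among the 12 widest gaps toward the no-tumor libraries: H3c3 stood at 111 and 48.3 against 4.30 and 1.91, and H4c9 at 34.3 and 42.2 against 3.70 and 4.20.

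Among the biology lists, type I interferon genes had the median furthest above all genes, but this rested in part on single libraries. Of 16 type I interferon genes compared, 6 were higher and 0 lower, against 18.7% and 3.53% of all genes. The median lay 1.90 above all genes. It was 1.29 above without the wild-type library and 0.88 above without tumor control 2. Without both it was -0.27 relative to all genes. Of the 6, 4 passed the filter only through the tumor libraries. When the wild-type library was omitted, 8 of 17 were higher, against 40.9% of all genes, without the Foxp3-Cre library 12 of 16 against 35.0%, and without tumor control 1 it was 19 of 21 against 28.1%. Oas1a, an antiviral 2-5A synthetase, stood at 2.24 and 1.91 without a tumor, against 26.6 and 149 with one. Usp18, the protease that removes ISG15, stood at 4.90 and 16.7 against 166 and 275. Irf9, a DNA-binding subunit of the factor that type I interferon activates, stood at 12 and 15.5 against 70 and 98.5. Ddx58, the RNA sensor RIG-I, stood at 0.635 and 2.03 against 15.8 and 40.5, and Xaf1 was also among the 6. In all 6, tumor control 2 was above tumor control 1.

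Other members were high in tumor control 2 alone. Isg15 stood at 6.26 and 36.5 without a tumor and at 24.4 and 299 with one. Ifit3 stood at 0.806 and 0 against 0 and 83.8, and Rsad2 at 0 and 0 against 0.287 and 52.8. Tumor control 2 also had the highest myeloid sums, at 12500 for neutrophil and 4430 for monocyte and macrophage genes. In the Foxp3-Cre no-tumor library these sums were 1240 and 137, and Ifit3 and Rsad2 were at 0. The part of myeloid cells in these values was not tested. In the SRC-3KO tumor libraries Isg15 stood at 28.0 and 50.5, against 41.7 and 53.6 without a tumor.

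The response element of genes induced by type I interferon contains a repeated GAAA. The letters GAAANNGAAA, on either strand, were in 10 of 21 windows of the type I list (47.6%) and in 9 of 19 windows of the interferon gamma list (47.4%), against 3.44% of all windows and 1 of 17 of the mitosis list. Of the 6 separated type I genes 4 had a window, and those of Oas1a and Ddx58 held a match. Oas1a holds 2 overlapping matches just before its start, shown in capitals in its 250 bases.
Oas1a, chr5:120907526-120907775, minus strand: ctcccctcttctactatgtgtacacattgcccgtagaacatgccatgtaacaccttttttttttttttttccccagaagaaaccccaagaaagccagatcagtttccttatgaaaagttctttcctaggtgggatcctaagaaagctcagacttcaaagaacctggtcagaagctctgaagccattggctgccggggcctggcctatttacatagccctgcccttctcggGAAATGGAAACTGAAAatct

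Of 18 interferon gamma genes, 5 were higher and 0 lower, against 18.7% and 3.53% of all genes. The median lay 1.27 above all genes, 0.46 above without the wild-type library and 0.06 above without it and tumor control 2. Of the 5, 3 passed the filter only through the tumor libraries. Once the wild-type library was dropped, 8 of 18 were higher, against 40.9% of all genes, without the Foxp3-Cre library 12 of 18 against 35.0%, and without tumor control 1 it was 9 of 19 against 28.1%. Gbp5, a guanylate-binding protein of host defence, stood at 1.58 and 6.32 against 69.9 and 137. Irgm1, an immunity-related GTPase, stood at 13.5 and 154 against 441 and 676. Irgm2 stood at 21.3 and 32.2 against 69.9 and 127, and Gbp7 (exon overlap 11.3%) at 2.23 and 40.6 against 85.6 and 171. Cxcl10, a chemokine that myeloid cells also make, stood at 2.95 and 10.2 against 28.4 and 231. Socs1, a feedback inhibitor, stood at 1830 and 405 against 412 and 458, and only the wild-type library was away from the rest.

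**Figure D3:**
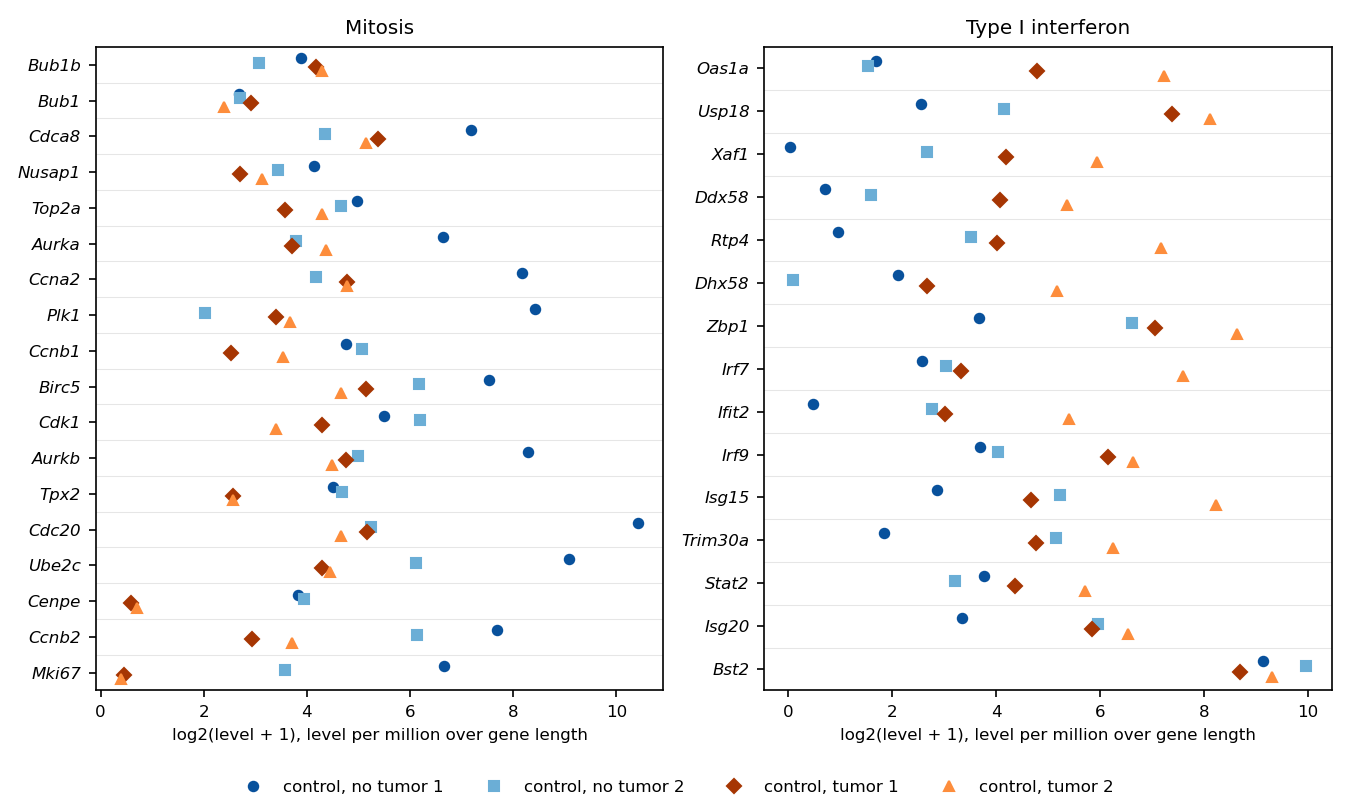
Levels, as log2(level + 1) on the x axis, of the compared mitosis genes (left) and type I interferon genes (right, 1 compared gene not shown) in the 4 control libraries; each point is a library, and genes are ordered by their difference. In Mki67, Ccnb2 and Cenpe both tumor points lie left of both no-tumor points, and in Isg15 and Irf7 tumor control 2 lies far right of the other 3.

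Cytokine genes of effector T cells were mostly unseparated. Of 10 compared, 1 was higher and 2 lower, against 18.7% and 3.53% of all genes, with a median of -0.43 relative to all genes. Tnf stood at 136 and 215 without a tumor and at 20.3 and 28.6 with one. Il2, which Foxp3 represses in Tregs, stood at 18.2 and 127 against 5.01 and 0.558. Il4 stood at 3.02 and 0.460 against 10.1 and 9.59. Ccl3, Ccl4 and Ifng stood within 2-fold of each other across the states, with Ifng at 41.4 and 30.2 against 20.9 and 27.1. Il3, a growth factor of T cells and mast cells that is on no list, was among the 12 widest gaps, at 33.3 and 12.2 against 0 and 0, where FPKM are listed at 0. Nppc, which encodes C-type natriuretic peptide (chr1:86666291-86670571, minus strand), had the widest gap of all toward the no-tumor libraries, at 147 and 73.6 (1199 and 680 counts) against 1.84 and 1.58. Mnd1, a meiotic recombination factor, followed at 35.1 and 34.8 against 0 and 1.06.

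Among resting T cell genes 5 of 17 were higher and 1 lower, against 18.7% and 3.53% of all genes. The median was -0.11 relative to all genes. Bcl2, a survival factor, stood at 13.1 and 16.4 against 88.0 and 66.3, and S1pr1, the receptor for lymphoid egress, at 8.02 and 16.8 against 66.9 and 56.2. Txk, a Tec family kinase, stood at 1.02 and 1.41 against 32.7 and 29.0. Il7r was also among the 5, of which 2 passed the filter only through the tumor libraries. Without the wild-type library 8 of 17 were higher, against 40.9% of all genes, and the list median relative to all genes was on either side of 0, from -0.39 to 0.15, without each library in turn. When the Foxp3-Cre library was omitted, 4 were lower, against 20.6% of all genes. Dapl1 was the one lower, at 13.4 and 107 against 2.36 and 1.31. Ccr7 overlapped, at 441 and 863 against 571 and 712.

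In the IL-2 and STAT5 list 3 of 11 were higher and 0 lower, against 18.7% and 3.53% of all genes. The median lay 0.24 above all genes, but at -0.02 relative to them without tumor control 1. With the wild-type library left out, 8 of 11 were higher, against 40.9% of all genes, and without the Foxp3-Cre library 3 were higher and 4 lower, against 35.0% and 20.6%. Jak1 and Jak3, the kinases of the receptor, stood at 32.0 and 61.4 against 289 and 307, and at 55.0 and 14.8 against 152 and 140. Socs3, a feedback inhibitor of cytokine signalling, stood at 30.1 and 0.117 against 78.0 and 281. Il2rg, the common gamma chain, stood at 1170 and 623 against 1910 and 1570, with an exon overlap of 30.5%.

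Genes induced within minutes of stimulation, which cell handling also raises, went in opposite directions depending on the no-tumor library. Of 24, 2 were higher and 1 lower, against 18.7% and 3.53% of all genes, with a median of -0.13 relative to all genes. When the wild-type library was omitted, 12 were higher and 1 lower, against 40.9% and 11% of all genes, with a median 0.29 above them. Without the Foxp3-Cre library 3 were higher and 8 lower, against 35.0% and 20.6%, with a median of -0.57, and without tumor control 2 it was 2 and 3, with -0.39. Tnfaip3 stood at 7.62 and 11.2 against 42.0 and 70.1, and Cd83 at 62.8 and 68.3 against 148 and 168, while Nr4a3 stood at 126 and 35.8 against 13.3 and 11.9. Ier2 stood at 3860 in the wild-type library, 563 in the Foxp3-Cre one and 353 and 286 with a tumor. Of 11 heat shock genes 2 were higher, against 18.7% of all genes. The 2 were Hspa5, the chaperone of the endoplasmic reticulum, at 116 and 353 against 1230 and 1330, and Hsph1, at 46.0 and 45.3 against 114 and 123. Once the wild-type library was dropped, 5 were higher and 3 lower, against 40.9% and 11% of all genes, and without the Foxp3-Cre library 6 and 1, against 35.0% and 20.6%.

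Of 16 glycolysis genes 4 were higher and 0 lower, against 18.7% and 3.53% of all genes, with a median 0.39 above all genes. Ldha, which makes lactate, stood at 1650 and 1040 against 4010 and 3600. Pfkp (exon overlap 5.58%) stood at 21 and 23.6 against 284 and 264, and Hk1 at 57.1 and 7.49 against 152 and 168. Gapdh, given above, was the fourth. Without the wild-type library 12 of 16 were higher, against 40.9% of all genes, with a median 1.01 above them. With the Foxp3-Cre library left out, it was 5 of 17 against 35.0%, and without tumor control 1 it was 7 of 17 against 28.1%. Of 15 cholesterol synthesis genes 3 were higher, against 18.7% of all genes. The 3 included Cyp51 at 48.3 and 49.9 against 131 and 106, and Fdps (exon overlap 26.7%) at 5.44 and 2.71 against 303 and 154. With the wild-type library left out, 9 of 15 were higher, against 40.9% of all genes. When the Foxp3-Cre library was omitted, 4 were higher and 3 lower, against 35.0% and 20.6%, and without tumor control 2 it was 6 higher, against 21.6%. Of 81 genes of oxidative phosphorylation 9 (11.1%) were higher and 2 (2.47%) lower, and of 80 ribosomal protein genes 4 (5.0%) were higher and 0 lower. These shares stood against 18.7% higher and 3.53% lower of all genes. Both medians, at -0.18 and -0.19 relative to all genes, turned with the no-tumor library used. When the wild-type library was omitted, they were -1.53 and -1.36 relative to all genes, with 28 of 81 and 19 of 80 lower against 11% of all genes. Without the Foxp3-Cre library both lay 1.53 above, with 56 of 82 and 51 of 80 higher against 35.0%. Sdha, a subunit of complex II, stood at 34.5 and 35.4 against 226 and 336. Cox4i1, of cytochrome c oxidase, stood at 2070 and 1710 against 379 and 286, with an exon overlap of 9.94%.

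**Figure D4:**
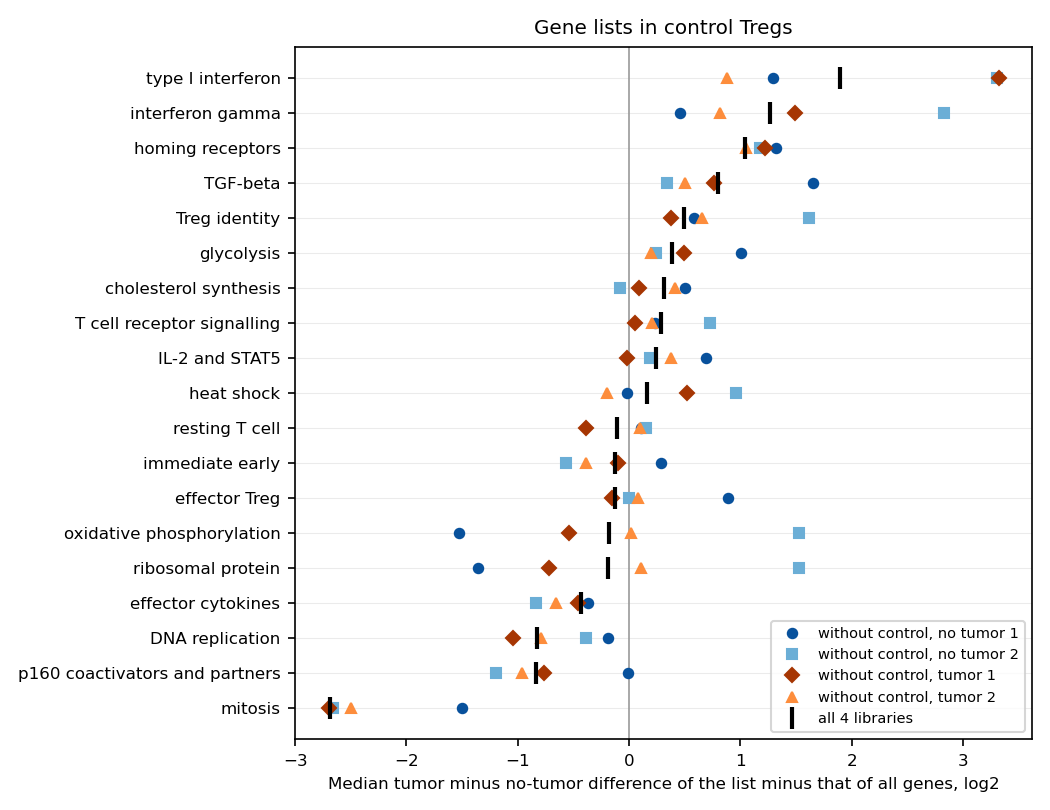
Median tumor minus no-tumor difference of each list minus the median of all genes, in log2 (x axis), with all 4 control libraries (black bars) and without each library in turn (coloured points). Mitosis lies left of 0 and homing receptors, TGF-beta and Treg identity lie right of 0 in every case shown, while oxidative phosphorylation and ribosomal protein genes change side with the no-tumor library left out.

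Of the p160 coactivators and their partners, 8 were compared and 0 were separated, with a median of -0.84 relative to all genes. Once the wild-type library was dropped, 3 were higher and 1 lower, against 40.9% and 11% of all genes, with a median of -0.01 relative to them. With the Foxp3-Cre library left out, 3 of 10 were lower and 0 higher, with a median of -1.2, and without tumor control 1 it was 1 of 9 each way. Ncoa3, which encodes SRC-3 and is not knocked out in these cells by label (chr2:165992636-166073242, plus strand), stood at 53.6 and 20.3 without a tumor and at 104 and 131 with one. Both tumor libraries were higher, and the gap fell just short of 2-fold. Prmt1, an arginine methyltransferase, stood at 335 and 331 against 262 and 177, and Ncor1, a corepressor, at 92.3 and 38.9 against 40.7 and 28.4.

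Markers of some other cell types were higher in tumor libraries, and others were not. Of the genes of MHC class II, which antigen-presenting cells express, 6 of 8 compared were separated as higher and 0 as lower. Of all genes 18.7% and 3.53% were. After quantile normalization 3 of 8 were higher, against 9.49% of all genes. Of the 6, 3 passed the filter only through the tumor libraries, and the median of the list lay 2.29 above all genes. Their summed level was 2110 and 466 in the no-tumor libraries, against 1960 and 12300 in the tumor libraries, so the wild-type library exceeded tumor control 1. Of 5 CD8 T and NK markers compared 0 were separated, and the monocyte and macrophage sums were 114 and 137 without a tumor, against 143 and 4430. H2-Aa stood at 7.91 and 8.73 against 198 and 1540, and H2-Eb1 at 43.1 and 32.1 against 109 and 734. H2-Ab1 stood at 209 and 39.9 against 312 and 3170 and was not separated. The B cell sums over 12 genes were 29.1 and 26.4 against 103 and 86.1, with Cd79b at 4.02 and 13.8 against 52.3 and 39.6, and Pax5 at or near 0 in all 4. The plasma cell sums were 229 and 175 against 442 and 568, and Mzb1 stood at 0.105 and 4.36 against 46.7 and 55.2 (exon overlap 57.2%). The CD8 and NK sums were 4760 and 407 against 456 and 915, most of the first from Nkg7 at 4660 in the wild-type library. Cd40lg, a marker of conventional CD4 T cells, stood at 924 in that library and at 59.5, 51.5 and 19.1 in the other 3. Their part in the other results was not tested. In these bulk samples, fewer cells of a type and less RNA per cell cannot be told apart.

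**Figure D5:**
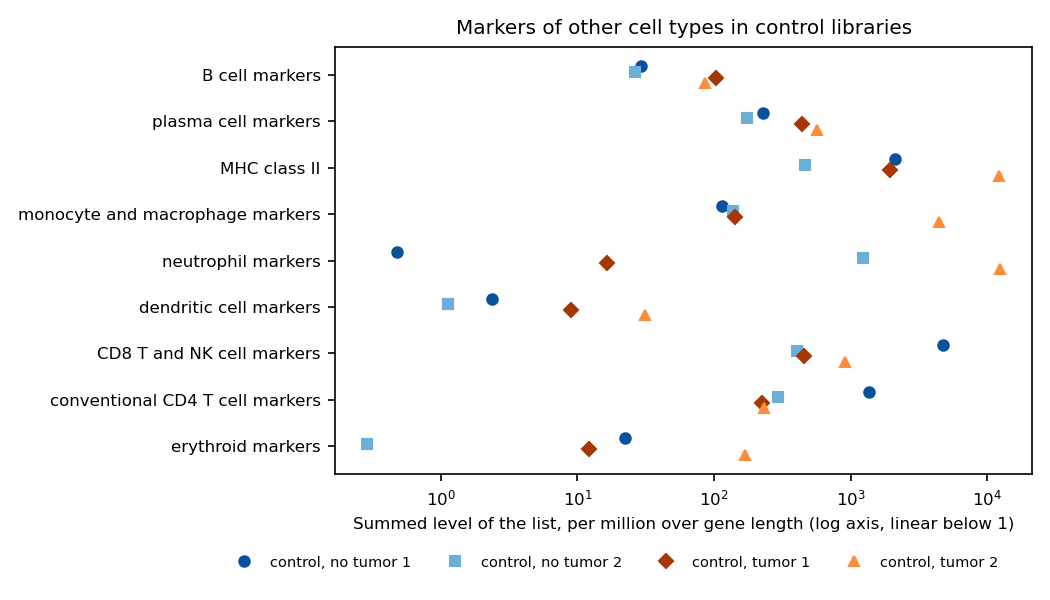
Summed level of each list of markers of other cell types (rows) in the 4 control libraries, on a log x axis that is linear below 1. Neutrophil and monocyte and macrophage markers are highest in tumor control 2, at 12500 and 4430, and CD8 T and NK cell markers in the wild-type no-tumor control, at 4760.

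A single test could be made: whether the tumor minus no-tumor difference of control Tregs differed from that of SRC-3KO Tregs. It used limma over all 8 libraries and 8348 genes. A constant offset between the tables cancels in it, but not for genes at or near 0 in some of the libraries. The 8348 genes were selected on the control libraries alone. Genes high in control and near 0 in SRC-3KO could thus enter, but genes high in SRC-3KO alone could not. This selection tends to favour differences of the first kind. The test called 1 gene (0.012%) at an adjusted p under 0.05, while 937 had an unadjusted p under 0.05. The gene was Ager, the receptor for advanced glycation end products (chr17:34597862-34600936, plus strand). It stood at 9.97 and 11 in control without a tumor and 0 and 0 with one, and at 0.0469 and 0 in SRC-3KO without a tumor and 0.249 and 0.367 with one. The interaction was -3.87 (SE 0.31, limma adjusted p = 0.0487). With tumor levels at or near 0 in both genotypes, it mostly restates the difference between the genotypes without a tumor. Next in order was Farp1, a guanine nucleotide exchange factor, at 13.2 and 5.65 without and 0.249 and 0.240 with a tumor in control, and at 0.0728 and 0.126 against 8.28 and 7.38 in SRC-3KO (-5.97, SE 0.55, limma adjusted p = 0.0624). The call rested on single libraries. With limma, 0 genes were called without tumor control 1, without tumor control 2 or without any 1 of the 4 SRC-3KO libraries, with 366 to 602 genes at an unadjusted p under 0.05. It called 85 genes without the wild-type library and 5704 without the Foxp3-Cre library. The lone library of a group is then assumed to vary like the other groups.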

How the data were processed

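RNA sequencing libraries of sorted splenic Tregs were compared: 2 control libraries without a tumor and 2 with one. The 4 SRC-3KO libraries entered only the interaction test and the values set beside the control ones. The authors deposited read counts per gene for the no-tumor libraries and StringTie FPKM for the tumor libraries, per the file headers, for the same 55487 genes. Per the submitters' processing notes, FastQC, Trim Galore, STAR, featureCounts and edgeR were used on mm10, with no versions. Strand setting and annotation release are not stated there.

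Genes were joined by identifier and restricted to protein-coding ones. Exon-union lengths, positions and exon overlap came from GENCODE vM21, to which 55141 identifiers matched. Counts were divided by length, and counts per length and FPKM were each scaled to 1000000. Totals were 25251597 and 24159217 counts. FPKM carry no depth, and no interval is given. A gene was compared at a level of at least 5 in both control libraries of a state, with a pseudocount of 1. The SRC-3KO libraries played no part in this filter.

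The interaction of state and genotype was tested with limma 3.58.1 (R 4.3.3) on log2(level + 1) with an intensity trend, with Benjamini-Hochberg adjustment over 8348 genes. Tested on simulated interactions of 3 (log2) in 200 genes, it found 100% at a noise SD of 0.3, where 15 of 215 calls were false, and 3% at a noise SD of 1. The simulated noise was equal in all libraries. In the data, 68% of genes were 2-fold apart in the no-tumor control pair and 2.08% in the SRC-3KO tumor pair. The simulated rates therefore do not give the error rates of the test on these data. If replicates are not separate animals, p-values measure only technical spread. Promoter windows are RefSeq's (GRCm38.p6). Figures used matplotlib 3.10.9.

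The members, lists and rules were chosen with earlier results of these data known. Named genes were the 12 widest gaps each way with a mean level of at least 20 in the higher state, without predicted, ribosomal and receptor segment genes, up to 5 separated and 3 other members of each list, Foxp3, Ncoa3, Cd4, Cd3e and the 6 smallest interaction p. Other members named to complete a count, and the widest gaps clear of exon overlap, were picked after their values were seen. A few genes enter the counts and medians of their lists but are not reported here by name. Alternatives covered scaling, length, trend, pseudocount, filter, gap and each library.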

Additional observations from a re-analysis of the deposited data

Results flagged for a closer look

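Ager was the gene whose tumor minus no-tumor difference differed between control and SRC-3KO Tregs by a test of the difference itself, with an interaction of -3.87 (SE 0.31, limma adjusted p = 0.0487). Both of its tumor control values are listed at 0, and the SRC-3KO values were all under 1. Ager thus differed between the genotypes mostly without a tumor, and it entered through a filter on the control libraries alone. Its no-tumor control values of 9.97 and 11 were close to each other in libraries that were 2-fold apart for 68% of genes. In limma, 0 genes passed with library weights, with a robust fit without trend, or without any 1 of the tumor control or SRC-3KO libraries, and quantile normalization called another gene in its place.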

How the results depend on the processing

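With median-of-ratios scaling 943 genes were separated as higher and 646 as lower, and after quantile normalization 792 and 736. Percentile ranks gave 471 higher, a 4-fold gap 589 and 72, non-overlap of any size 3421 and 1059, and a filter at a level of 20 left 179 lower. The next restrictions were chosen after seeing the data: genes clear of exon overlap gave 994 higher, and leaving out the wild-type library and tumor control 2 together gave 3986 and 1189. Leaving out each control library in turn gave 1853 to 3537 higher and 411 to 1877 lower. Under the other settings both counts stayed within 1.5 times of 1565 and 295. Between 9 and 15 of the 19 lists had a median above all genes under all settings tried, against 10. The type I interferon median, 1.90 above all genes, was 0.88 to 3.32 without single libraries, and -0.27 without the wild-type library and tumor control 2 together; the cause was not tested. It was the one list median beyond its replicate spread that turned. Of 2711 named-gene values under other settings, 0 turned in a separated gene, and 443 moved by more than 1 SD between replicates. At a filter of 20, 3734 genes in the no-tumor pair and 244 in the tumor pair were 2-fold apart, of 5339.

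The limma interaction called 1 gene. Whether sample numbers pair the tumor libraries is not known. Their same-numbered deviations had an r of 0.045 across genes, which cannot exclude a pairing. With P1 and P2 as a replicate block 0 genes were called and 637 had an unadjusted p under 0.05, and library weights and a robust fit without trend called 0 each (496 and 861). A pseudocount of 0.1 called 4. Leaving out a library called 0 to 5704, with 0 without each tumor or SRC-3KO library. A filter at 20, where Ager was not tested, and quantile normalization each called 1 gene other than Ager.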

Other observations

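The difference between the states varied with the length of a gene's longest transcript, though not steadily. The median tumor minus no-tumor difference was 0.25 over the 497 genes under 1000 bases, -0.02 over the 1582 genes of 1000 to 2000, 0.93 over the 3604 genes of 2000 to 4000, 1.06 over the 2379 genes of 4000 to 8000, and 0.74 over the 286 genes above 8000. Exon-union length, over all exons merged, is another measure. By it, genes separated as higher had a median of 5305 bases and those separated as lower 2600 bases, against 4150 over all genes compared. Mitosis, histone, oxidative phosphorylation and ribosomal protein genes differ in length, and the part of length in each list's value is given only by the trend-removed alternative, under which the mitosis median lay at -2.64 relative to all genes.

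Tumor control 2 and the Foxp3-Cre no-tumor library shared neutrophil granule transcripts that the other 2 control libraries nearly lacked. Camp, a granule antimicrobial peptide, stood at 98.0 in the Foxp3-Cre no-tumor library and 177 in tumor control 2, and at 0 in the others. Ngp, a neutrophil granule protein, stood at 300.0 and 1200 in them, and at 0.105 and 1.48 in the wild-type library and tumor control 1. Csf3r, the receptor for the neutrophil growth factor G-CSF, was at 101 in tumor control 2 and at 0 in the other 3. Mpo and Elane, of early granulocyte precursors, were at 0 in all 4.

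Haemoglobin and other erythroid genes summed to 168 in tumor control 2 and to 22.3, 0.512 and 12.1 in the wild-type, the Foxp3-Cre and the other tumor library.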
